A study of Mus musculus with 4 samples.

Results

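Collagens are secreted proteins whose chains wind around each other into stiff helices. Fibrillar chains pack into the fibrils of connective tissue, Col4 chains form the mesh of basement membranes, and the remaining chains coat fibrils, anchor them, build short networks or sit in the cell surface. In the early embryo Col4 chains accompany the first basement membranes, whereas fibrillar collagen of types I and III is best known as a product of fibroblasts and related mesenchymal cells. The collagen chain genes described here were taken as all probe sets whose single gene symbol consists of Col, a number, the letter a and a number. There were 82 such probe sets for 42 genes among the 45101 probe sets of the array: 21 for 11 fibrillar genes, 12 for the 6 Col4 genes and 49 for 25 other genes.

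Messenger RNA was measured on Affymetrix arrays in mouse embryonic stem cells, with 2 arrays of cells lacking Suz12 (labelled Suz12KO) and 2 arrays of wild-type cells (labelled WT). Suz12 belongs to the Polycomb complex PRC2, which methylates histone H3. The labels describe RNA from 3 clones of each genotype, mixed in equal amounts to a single pool, and give no strain, culture or feeder details. They do not say whether both arrays of a genotype carry separate RNA, so the p-values measure spread between arrays, which may be technical. RNA of whole cultures was measured, so fewer cells of a type and less RNA per cell cannot be told apart.

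Signal is in arbitrary units on a linear scale, and the number of arrays limits its precision. Bacterial spike transcripts read low and were taken as unused. The highest of their 27 probe sets was 195 and 174 in the Suz12KO arrays and 141 and 191 in the WT arrays, and this level served as background. It lay near the median signal of the arrays, which was 202 and 191 in Suz12KO and 175 and 171 in WT. It was exceeded by 36 and 34 collagen probe sets in Suz12KO (43.9% and 41.5%) and by 42 and 36 in WT (51.2% and 43.9%). Of all probe sets, 51.1% and 52.8% exceeded it in Suz12KO and 55.8% and 47% in WT. The most strongly detected of 6 Suz12 probe sets read 217 and 369 in Suz12KO and 1097 and 1094 in WT, a log2 fold change of -1.89 (SE 0.27, limma adjusted p = 0.0028). No source used here says whether that probe set detects the deleted sequence. Averaged over all its probe sets, Suz12 was at -1.67 (adjusted p = 0.0602). All 6 embryonic stem cell markers (Pou5f1, Nanog, Sox2, Zfp42, Esrrb and Klf4) lay above background in all 4 arrays. The markers that define the labelled cell type were thus present in both genotypes. All 6 also rose in Suz12KO by limma, where 2.43% of all tested probe sets rose, or 4.48% with 1 probe set per gene. Nanog rose most, from 1932 and 2055 in WT to 8061 and 8446 in Suz12KO (log2 fold change 2.04, SE 0.08). Klf4 (2.03, SE 0.12) and Esrrb (1.77, SE 0.12) followed. The rise of Zfp42 (log2 fold change 0.47, limma adjusted p = 0.0439) was lost without Suz12KO replicate 1 or 2 or WT replicate 1 (adjusted p 0.181, 0.0700 and 0.215), with no filter (0.0688), with probe sets averaged per gene (0.0585) and after centring (0.218).

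The comparison asks which transcripts change in stem cells when Suz12 is missing. Transcripts of the connective tissue fibril chains Col1a1, Col1a2, Col3a1, Col5a1 and Col11a1 fell in Suz12KO cells, whereas the brightly detected Col4a1, Col4a2 and Col18a1 probe sets showed log2 fold changes between -0.26 and 0.09. Of the 82 collagen probe sets, 54 were bright enough to be tested, and 11 of them, from 7 genes, were lower in Suz12KO (20.4%, against 3.15% of all 31526 tested probe sets). None was higher (0 of 54 by limma), against 2.43% of all tested probe sets. At an unadjusted p under 0.05, 16 of the 54 had a negative and 6 a positive fold change. Of all 31526 tested probe sets, 5682 had such a p in either direction, and these were not split by direction. The called falls were 9 of 18 tested fibrillar probe sets, 1 of 7 tested Col4 probe sets and 1 of 29 tested others. A call is an adjusted p under 0.05 (limma with a mean-variance trend on log2(signal + 16), Benjamini-Hochberg over all tested probe sets), and fold changes on this scale understate those of dim probe sets.

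The median log2 fold change was -0.92 for the tested fibrillar probe sets, -0.26 for Col4 and -0.01 for the others, beside 0.05 for all tested probe sets. In 22 of the 54 both Suz12KO arrays read lower than both WT arrays, and in 6 both read higher. Of all tested probe sets, 21.4% and 26.8% did so. With 2 arrays a genotype such separation is thus common, and where single probe sets show it below it is description only. The 54 are those that passed a filter on mean level, so these counts describe them and not all members. With no filter all 82 were tested, 8 fell, none rose and the median was -0.064, where 1.79% of all probe sets fell and 1.25% rose. Each of the 11 calls rests on letting the variance depend on signal level: limma without that trend called 0 probe sets in the whole table (smallest adjusted p = 0.215), with 4193 probe sets, 20 of them collagen, at an unadjusted p under 0.05. 

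Single arrays and the way probe sets were combined moved these counts, and each stands here beside the share of all tested features. Without Suz12KO replicate 1 there were 11 collagen falls and 0 rises (2.63% and 1.42% of all), and without Suz12KO replicate 2 there were 8 falls and 1 rise (3.29% and 1.5%). Without WT replicate 1 there were 6 falls and 0 rises (2.1% and 2.29%), and without WT replicate 2 there were 5 and 0 (2.04% and 2.13%). With 1 probe set per gene, the brightest, 6 genes fell and 1 rose (5.5% and 4.48% of genes). With probe sets averaged per gene, 4 genes fell and 0 rose (2.4% and 2.39%). With replicate number as a block 12 probe sets fell and 2 rose (4.96% and 4.25%), and with each array centred on its median 14 fell and 0 rose (5.15% and 1.2%).

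**Figure D1:**
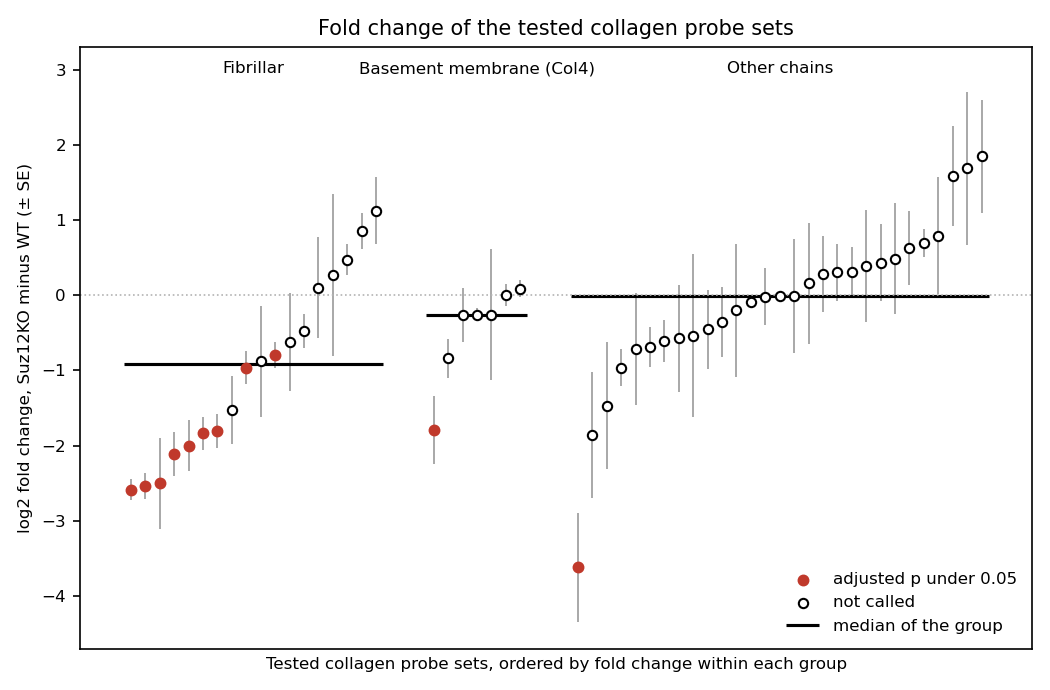
Log2 fold change of Suz12KO over WT (vertical axis, ± SE from limma, n = 2 arrays each) for the 54 tested collagen probe sets, ordered within each group. Filled points passed an adjusted p of 0.05, 9 of them fibrillar, and the bars mark group medians of -0.92, -0.26 and -0.01.

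Col1a1 and Col1a2 encode the chains of type I collagen, the main fibril of bone, skin and tendon. The Col1a1 probe set 1423669_at read 435 and 448 in Suz12KO and 2859 and 2599 in WT. Its log2 fold change was -2.58 (SE 0.14, limma adjusted p = 1.13e-05). The second Col1a1 probe set, 1455494_at, read 345 and 348 in Suz12KO and 2257 and 1936 in WT, a log2 fold change of -2.54 (SE 0.17). Both Col1a1 probe sets thus gave the same picture, with the Suz12KO arrays close to each other and far below WT. For Col1a2, the probe set 1450857_a_at read 500 and 332 in Suz12KO and 1347 and 1590 in WT, a log2 fold change of -1.80 (SE 0.22, limma adjusted p = 0.0012). The Col1a2 probe set 1423110_at read 163 and 33.8 in Suz12KO and 469 and 572 in WT. Both of these Suz12KO readings were within background, so the fall was at least 2.82-fold (limma adjusted p = 0.0427). The last Col1a2 probe set, 1446326_at, lay within background in all arrays (30.2 and 55.1 in Suz12KO, 5.14 and 7.53 in WT) and was not tested. The call of Col1a2 1423110_at was lost when WT replicate 1 or 2 was left out (adjusted p 0.104 and 0.183), with no filter (0.0925) and with a pseudocount of 1 (0.0568). Its log2 fold change of -2.50 became -1.58 when Suz12KO replicate 2 was left out. The mean over all Col1a2 probe sets, the dim last one included, was -0.98 and did not pass (adjusted p = 0.248).

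Col3a1, the chain of type III collagen found with type I in skin and vessel walls, also fell. Its probe set 1427883_a_at read 252 and 172 in Suz12KO and 813 and 1133 in WT, a log2 fold change of -2.12 (SE 0.29, limma adjusted p = 0.0024). A dimmer Col3a1 probe set, 1427884_at, had values of 91.1 and 88.8 in Suz12KO and 173 and 124 in WT, did not pass the test and was above background in 1 WT array alone. Both Col3a1 probe sets had their Suz12KO arrays below their WT arrays, and the mean of the pair was -1.37 (adjusted p = 0.0605).

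Col5a1 and Col11a1 encode chains of the minor fibrillar types V and XI, which sit inside larger fibrils and help set their diameter. The Col5a1 probe set 1416740_at read 799 and 626 in Suz12KO and 1277 and 1210 in WT, a log2 fold change of -0.80 (SE 0.17, limma adjusted p = 0.0257). Another, 1434479_at, read 660 and 456 in Suz12KO and 995 and 1186 in WT, a log2 fold change of -0.96 (SE 0.22, limma adjusted p = 0.0300). The remaining Col5a1 probe set, 1416741_at, was within background in Suz12KO (98.6 and 141) against 313 and 438 in WT and did not pass (at least 2.01-fold, limma adjusted p = 0.0934). In all 3 Col5a1 probe sets both Suz12KO arrays read below both WT arrays, as in 21.4% of all tested probe sets. The call of Col5a1 1416740_at was lost without Suz12KO replicate 2 or without either of the WT arrays, 1 and 2 (adjusted p 0.0835, 0.113 and 0.0690), and that of Col5a1 1434479_at without Suz12KO replicate 2, without WT replicate 2 and with no filter (adjusted p 0.0893, 0.149 and 0.0538).

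Col11a1 fell further than Col5a1 on the same log2 scale, a comparison of fold changes that was not tested. Its probe set 1418599_at read 350 and 285 in Suz12KO and 1305 and 1044 in WT, a log2 fold change of -1.84 (SE 0.22, limma adjusted p = 0.0011). The second, 1449154_at, read 127 and 156 in Suz12KO, within background, and 599 and 625 in WT, which makes it at least 3.33-fold lower (limma adjusted p = 0.0075). The call of Col11a1 1449154_at was lost when WT replicate 1 or 2 was left out (adjusted p 0.0536 and 0.0635). That of Col11a1 1418599_at held with any 1 array left out (adjusted p up to 0.0084).

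The other fibrillar chains did not pass the test. Col5a2, which joins Col5a1 in type V collagen, read 588 and 426 in Suz12KO and 715 and 694 in WT (log2 fold change -0.48, SE 0.23, limma adjusted p = 0.313). Col2a1, Col5a3 and Col27a1 pointed the other way. Col2a1, the main collagen of cartilage, read 738 and 694 in Suz12KO and 552 and 475 in WT (0.47, SE 0.21, limma adjusted p = 0.271). Col5a3 had 406 and 275 in Suz12KO and 174 and 120 in WT (1.12, SE 0.45, limma adjusted p = 0.215). Col27a1, a fibrillar chain of cartilage, had a probe set, 1453191_at, that read 1206 and 752 in Suz12KO and 489 and 552 in WT (0.85, SE 0.24, limma adjusted p = 0.0786). In these 3 probe sets both Suz12KO arrays read above both WT arrays, as in 26.8% of all tested probe sets. The dimmer Col27a1 probe set, 1429549_at, overlapped at 373 and 88.4 in Suz12KO and 227 and 130 in WT (0.10, SE 0.67), and the mean of the pair was 0.48 (adjusted p = 0.611). A second Col5a3 probe set lay within background in all arrays and was not tested. Col27a1 1453191_at passed the test without Suz12KO replicate 2 (1.19, adjusted p = 0.0175) and with replicate number as a block (adjusted p = 0.0121). Without Suz12KO replicate 1 its log2 fold change was 0.52, and without Suz12KO replicate 2 that of Col5a2 was -0.25. The remaining 7 fibrillar probe sets, which include the only ones of Col11a2 and Col24a1, read 5.14 to 373, and the 4 of them that were tested did not pass.

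**Figure D2:**
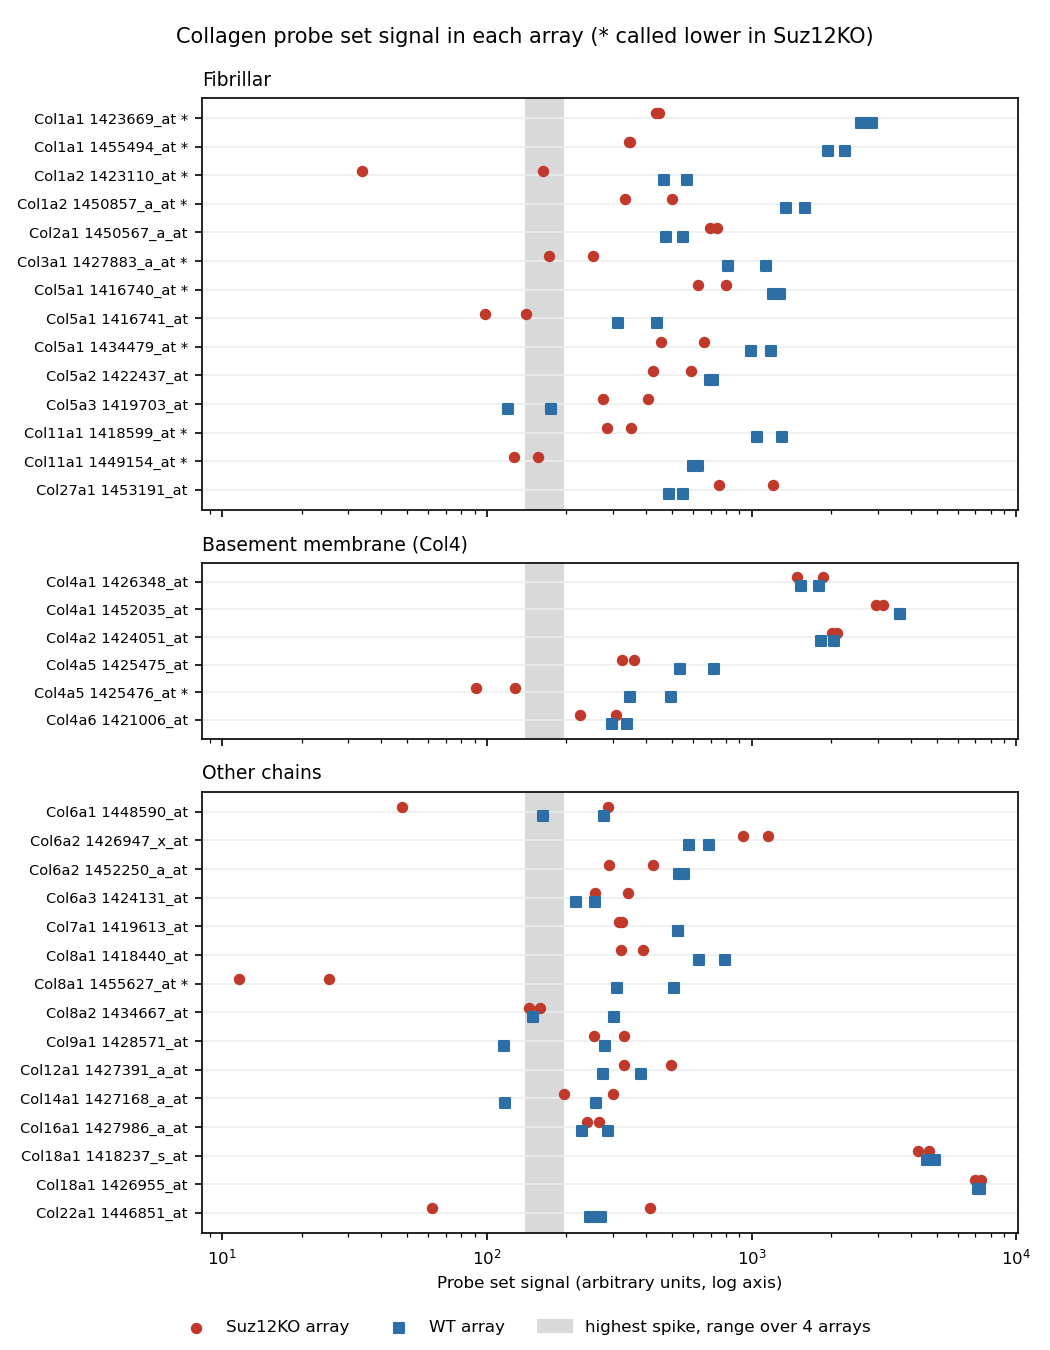
Signal (horizontal log axis, arbitrary units) of the 35 collagen probe sets that passed the test or lay above background in both arrays of a genotype; circles are the Suz12KO arrays, squares the WT arrays, and an asterisk marks a call. The grey band spans the highest bacterial spike of each array (141 to 195). Circles lie left of squares for Col1a1, Col1a2, Col3a1, Col5a1 and Col11a1 and overlap with them for Col4a2 and Col18a1.

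The sequences before the gene starts of the fibrillar genes with a called fall are shown. These genes were chosen by that call, which fixes their shared direction. Whether they share a control was not tested. RefSeq windows of GRCm38.p6 were found for 33 of the 42 collagen genes, and for 4 of the 5 fibrillar genes that fell. The 250 bases before the gene start of these 4 are given 5′ to 3′ on the gene's strand. Capitals mark the letters CCAAT (or ATTGG on the other strand), as in the CCAAT box bound by NF-Y. They also mark TATAAA (or TTTATA), as in the TATA box. Matches were marked at any position, so the letters need not lie where a working box would.
Col1a2 (chr6:4505368-4505617, plus strand): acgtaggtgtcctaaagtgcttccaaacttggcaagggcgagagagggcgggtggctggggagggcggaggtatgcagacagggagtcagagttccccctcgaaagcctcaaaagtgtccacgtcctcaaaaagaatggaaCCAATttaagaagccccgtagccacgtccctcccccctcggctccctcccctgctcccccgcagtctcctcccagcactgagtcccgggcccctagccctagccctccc
Col3a1 (chr1:45311288-45311537, plus strand): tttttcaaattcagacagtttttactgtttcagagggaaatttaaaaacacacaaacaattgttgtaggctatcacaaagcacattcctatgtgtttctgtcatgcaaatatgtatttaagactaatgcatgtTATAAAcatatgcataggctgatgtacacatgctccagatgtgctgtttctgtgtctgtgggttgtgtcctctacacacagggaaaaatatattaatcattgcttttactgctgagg
Col5a1 (chr2:27886175-27886424, plus strand): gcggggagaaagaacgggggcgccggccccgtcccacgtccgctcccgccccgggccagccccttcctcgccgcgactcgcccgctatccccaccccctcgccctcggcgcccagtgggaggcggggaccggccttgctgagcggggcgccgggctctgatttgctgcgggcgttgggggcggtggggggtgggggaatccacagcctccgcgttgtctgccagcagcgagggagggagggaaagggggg
Col11a1 (chr3:114030290-114030539, plus strand): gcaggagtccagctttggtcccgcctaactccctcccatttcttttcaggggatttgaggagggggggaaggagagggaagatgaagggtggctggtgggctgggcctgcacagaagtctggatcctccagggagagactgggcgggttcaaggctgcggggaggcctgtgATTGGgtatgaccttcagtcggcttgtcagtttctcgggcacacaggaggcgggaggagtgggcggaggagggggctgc
CCAAT occurred in the windows of Col1a2 and Col11a1, TATAAA in that of Col3a1, and neither in that of Col5a1. Over all collagen genes, 13 of 36 windows held CCAAT on either strand (36.1%, against 33.9% of all 32841 windows) and 5 held TATAAA (13.9% against 12.4%). GGGCGG, the GC box read by Sp factors, was searched on both strands too and stood in 21 of the 36 (58.3% against 32.7%), and the AP-1 sequence TGANTCA in 1 (2.78% against 6.75%). The collagen windows were also richer in G and C, with a median of 59.0% against 52.4% in all windows. Whether this accounts for the GGGCGG share was not tested. The 4 motifs were counted separately, and none contains another. The 4 printed windows differed in base composition: the observed over expected ratio of CG pairs was 0.77 for Col5a1, 0.47 for Col1a2, 0.33 for Col11a1 and 0 for Col3a1, with a median of 0.37 over all windows. Such matches describe letters and do not show that a factor binds.

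Among the basement membrane chains, Col4a1 and Col4a2 form the type IV collagen present in most basement membranes. The Col4a1 probe set 1452035_at read 2953 and 3133 in Suz12KO and 3642 and 3644 in WT, a log2 fold change of -0.26 (SE 0.09, limma adjusted p = 0.141). The other, 1426348_at, read 1857 and 1484 in Suz12KO and 1532 and 1799 in WT, so that the genotypes overlapped (log2 fold change 0.0003, SE 0.15). Col4a2 overlapped likewise, with 2104 and 2004 in Suz12KO and 2045 and 1826 in WT (0.09, SE 0.11, limma adjusted p = 0.748). These genes lie head to head on opposite strands of chromosome 8, with RefSeq gene starts 21 bases apart and 5′ ends that overlap. Centring each array on its median shifts every log2 fold change of the table by -0.17, and this shift alone put Col4a2 at -0.081, Col4a1 1426348_at at -0.17 and Col4a1 1452035_at at -0.43, which then passed (adjusted p = 0.0393). Without Suz12KO replicate 1 or WT replicate 1, Col4a1 1426348_at was at -0.16 and -0.11.

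Col4a5 and Col4a6 are the X-linked chains, known from kidney and other specialised basement membranes, and they too lie head to head, with gene starts 1343 bases apart. The Col4a5 probe set 1425476_at read 128 and 91.3 in Suz12KO, within background, and 347 and 494 in WT, at least 2.25-fold lower (limma adjusted p = 0.0487). A brighter Col4a5 probe set, 1425475_at, read 361 and 323 in Suz12KO and 721 and 539 in WT without passing (log2 fold change -0.84, SE 0.26, limma adjusted p = 0.111). Both put Col4a5 lower in Suz12KO with no overlap of arrays, and the mean of the pair did pass (-1.32, SE 0.26, adjusted p = 0.0393). The call of Col4a5 1425476_at is close to the threshold: it was lost without Suz12KO replicate 2 or without either of the WT arrays, 1 and 2 (adjusted p 0.0698, 0.121 and 0.361), with a pseudocount of 1 (0.0525), with no filter (0.0984) and among probe sets with no s, x or a suffix (0.0521). After centring Col4a5 1425475_at passed (-1.01, adjusted p = 0.0495). Col4a6 read 306 and 224 in Suz12KO and 338 and 298 in WT, which overlap (-0.26, SE 0.36, limma adjusted p = 0.764). Without Suz12KO replicate 1 or 2 Col4a6 was at -0.47 or -0.05. The 5 probe sets of Col4a3 and Col4a4, the partners of Col4a5 in the kidney glomerulus, lay within background in all 4 arrays.

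Of the other chains, Col8a1 alone had a called fall. This was 1 of 29 tested probe sets (3.45%), near the 3.15% of all tested probe sets, so it is no result about these chains as a group. Col8a1 encodes a short chain of network-forming type VIII collagen, known from vessel walls and the cornea. Its probe set 1455627_at read 25.4 and 11.6 in Suz12KO, far within background, and 311 and 510 in WT. It was at least 2.16-fold lower (limma adjusted p = 0.0175). Its Suz12KO readings lay under the filter level of 75.7, so it was tested only through its WT level. A second Col8a1 probe set, 1418440_at, read 391 and 322 in Suz12KO and 793 and 632 in WT and narrowly missed the threshold (log2 fold change -0.97, SE 0.25, limma adjusted p = 0.0535). It passed with 1 probe set per gene (adjusted p = 0.0391), after centring (0.0223), with a filter at the 50th percentile (0.0438) and with the replicate block (0.0178). The mean over all Col8a1 probe sets was -1.81 and did not pass (adjusted p = 0.0856). Without WT replicate 1 or WT replicate 2, Col8a1 1455627_at fell under the filter and had no test. The last one, 1418441_at, lay within background in all arrays. Col8a2, the partner chain, read 144 and 159 in Suz12KO and 149 and 303 in WT (-0.46, SE 0.53, limma adjusted p = 0.713), and 0.019 without WT replicate 2.

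Col18a1 encodes a basement membrane collagen whose end fragment is known as endostatin, and its probe sets differed little. The probe set 1426955_at read 6985 and 7347 in Suz12KO and 7147 and 7311 in WT, a log2 fold change of -0.01 (SE 0.07, limma adjusted p = 0.950). The other, 1418237_s_at, read 4697 and 4248 in Suz12KO and 4923 and 4597 in WT (-0.09, SE 0.09, limma adjusted p = 0.643). In both the genotypes overlapped. The sign for Col18a1 1426955_at was positive without Suz12KO replicate 1 (0.023), without WT replicate 2 (0.0033) and under quantile normalization (0.0059).

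Col6a1, Col6a2 and Col6a3 build the beaded filaments of type VI collagen around cells, and the probe sets of Col6a2 disagreed. The probe set 1426947_x_at read 924 and 1153 in Suz12KO and 688 and 580 in WT, a log2 fold change of 0.70 (SE 0.19, limma adjusted p = 0.0707). The probe set 1452250_a_at of the same gene read 290 and 425 in Suz12KO and 533 and 554 in WT, a log2 fold change of -0.60 (SE 0.28, limma adjusted p = 0.296). Neither passed, both had arrays that did not overlap, in opposite directions, and the mean of the pair was 0.05 (SE 0.20). An x suffix marks a probe set that can also detect other transcripts. With 1 probe set per gene, 1426947_x_at stands for Col6a2 and passed narrowly (adjusted p = 0.0498), as it did with the replicate block (0.0232). Col6a3 read 341 and 256 in Suz12KO and 217 and 257 in WT (0.31, SE 0.38, limma adjusted p = 0.734), with 0.11 without Suz12KO replicate 1. Col6a1 spread widely within genotypes, at 287 and 48.1 in Suz12KO and 162 and 278 in WT (-0.72, SE 0.74, limma adjusted p = 0.676), and was at 0.41 without Suz12KO replicate 2.

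Col7a1 forms the anchoring fibrils under the skin's epithelium. It read 325 and 316 in Suz12KO and 525 and 529 in WT, a steady difference within each genotype that did not pass (log2 fold change -0.69, SE 0.26, limma adjusted p = 0.195). The fibril-associated chains, which decorate fibrils without forming them, did not pass the test. Col12a1 read 497 and 330 in Suz12KO and 383 and 274 in WT (0.31), and Col9a1 read 330 and 255 in Suz12KO and 117 and 279 in WT (0.63). Col14a1 1427168_a_at read 195 and 298 in Suz12KO and 117 and 258 in WT (0.43), and Col16a1 read 240 and 266 in Suz12KO and 286 and 229 in WT (-0.02). Col22a1 read 62.3 and 413 in Suz12KO and 269 and 245 in WT (-0.57). The limma adjusted p of these 5 probe sets was 0.555 to 0.988, and the genotypes overlapped in each. A dimmer Col14a1 probe set, 1428455_at, went the other way without overlap, at 63.8 and 18.3 in Suz12KO and 197 and 155 in WT (-1.86, SE 0.84, limma adjusted p = 0.281). Their direction or size rested on single arrays: without Suz12KO replicate 1 Col22a1 was at 0.65, Col16a1 at 0.05 and Col12a1 at 0.02, and without WT replicate 1 Col14a1 was at -0.09, Col16a1 at 0.13 and Col9a1 at 0.05.

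The remaining 34 probe sets of the other chains read 4.59 to 397, and 18 of them lay within background in all arrays. None of the 14 that were tested passed (limma smallest adjusted p = 0.231, log2 fold changes -1.86 to 1.85). They include every probe set of the transmembrane chains Col13a1, Col17a1, Col23a1 and Col25a1, of Col10a1, the collagen of hypertrophic cartilage, and of Col6a4, Col6a5, Col9a2, Col9a3, Col15a1, Col19a1, Col20a1 and Col26a1. Of the 28 collagen probe sets of any group that were too dim to be tested, 3 had both Suz12KO arrays below both WT arrays and 4 had both above. The same share over all untested probe sets was not counted, so these counts are not a result about collagen. In all, 17 of the 42 genes had no probe set that lay above background in both arrays of a genotype. Among these, and named after their values were seen, Col25a1 1438540_at read 271 and 145 in Suz12KO and 33.0 and 56.9 in WT (log2 fold change 1.85, SE 0.76, limma adjusted p = 0.231, at least 1.21-fold higher). Col6a4 1445470_at read 146 and 369 in Suz12KO and 69.6 and 64.8 in WT (1.59, SE 0.67, limma adjusted p = 0.245, at least 1.41-fold higher). The genotypes did not overlap in either, and neither passed. With 2 arrays a genotype, a probe set that did not pass is not shown to be unchanged.

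Genes that modify, process, bind or degrade collagen were described from lists, each gene by its brightest probe set. Their calls are from the fit over all probe sets, where 3.15% fell and 2.43% rose; in a fit of 1 brightest probe set per gene 5.5% fell and 4.48% rose. Of 19 genes for chain modification and folding on the array, 17 were tested, 4 fell and 0 rose by limma. At an unadjusted p under 0.05, 5 were lower and 1 was higher. Such a p was found for 5682 of all 31526 tested probe sets, in either direction. It was not counted with 1 probe set per gene. Serpinh1, the chaperone HSP47 that is dedicated to collagen, read 2284 and 2395 in Suz12KO and 4702 and 5041 in WT, a log2 fold change of -1.05 (SE 0.09, limma adjusted p = 1.31e-04). Plod2, which hydroxylates lysines used for cross-links, fell by 0.84 on the log2 scale (SE 0.11), and Sparc, a collagen-binding glycoprotein, fell by 0.59 (SE 0.06). The list also held 1 more fall, outside the rule of 3 per list and named after its values were seen: P4hb, a subunit of prolyl 4-hydroxylase, at -0.36 (SE 0.06, limma adjusted p = 0.0104), a call lost without Suz12KO replicate 1 or WT replicate 2 (adjusted p 0.0578 and 0.0529). The prolyl hydroxylase subunits P4ha1 (-0.33) and P4ha2 (0.19) did not pass, and the list median was -0.08. Averaged over its probe sets, Sparc did not pass (-0.36, adjusted p = 0.0927).

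Of 11 processing and cross-linking genes on the array, 9 were tested. At an unadjusted p under 0.05 by limma, 4 were lower and 0 higher, where 5682 of all 31526 tested probe sets had such a p. After adjustment 1 fell (background 3.15%, or 5.5% with 1 probe set per gene). The one was Pxdn, the peroxidase that cross-links type IV collagen, at 724 and 815 in Suz12KO and 1929 and 2374 in WT (log2 fold change -1.46, SE 0.15, limma adjusted p = 0.0004). Among 10 collagen receptors, 9 tested, Itgb1, the shared beta chain of collagen-binding integrins, fell by 1.01 on the log2 scale (SE 0.08) and the kinase Ddr1 fell by 0.72 (SE 0.11), with 0 rises at an unadjusted p under 0.05. Of 11 collagen-degrading enzymes and inhibitors, 8 were tested. Timp2, a metalloproteinase inhibitor, fell by 1.23 on the log2 scale (SE 0.14) and Mmp14, a membrane-bound collagenase, fell by 0.77 (SE 0.12), again with 0 rises at an unadjusted p under 0.05. List medians were -0.30 for processing, -0.05 for receptors and -0.20 for degradation. Averaged over each gene's probe sets, Itgb1 (-0.33, adjusted p = 0.531), Ddr1 (-0.37, 0.277), Timp2 (-0.37, 0.539) and Mmp14 (-0.70, 0.0684) did not pass.

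**Figure D3:**
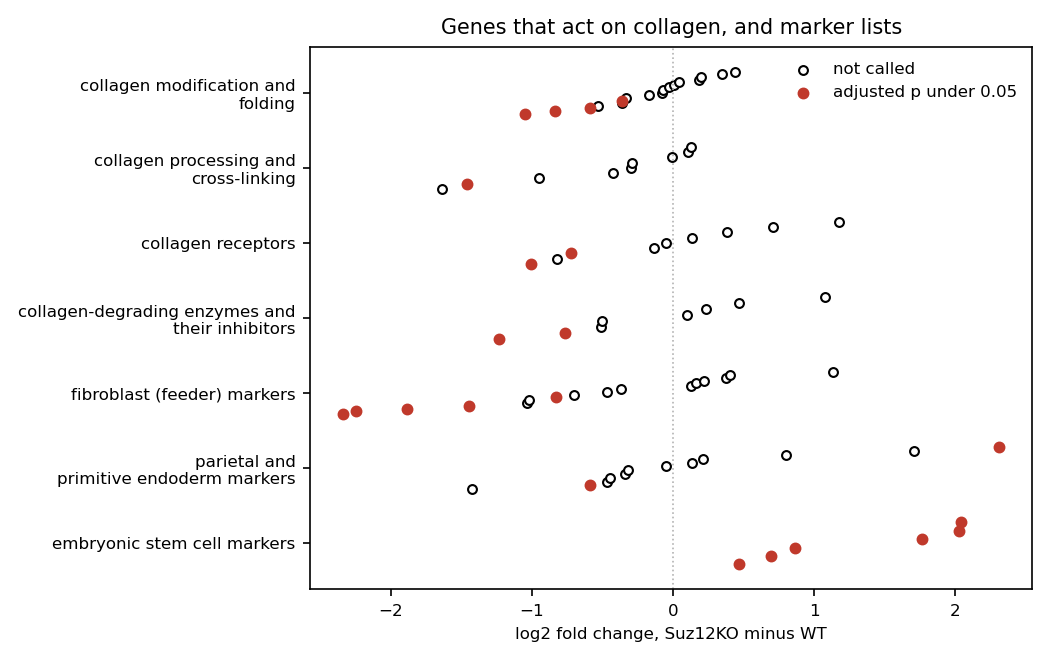
Log2 fold change of Suz12KO over WT (horizontal axis) for the tested genes of 7 lists, each gene by its brightest probe set, with filled points at an adjusted p under 0.05. Filled points lie left of 0 in the 4 collagen pathway lists and the fibroblast list, and right of 0 for the 6 embryonic stem cell markers.

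Fibroblasts make collagen and serve as feeder cells in some stem cell cultures. Of 19 listed fibroblast markers, 16 were tested, 5 fell and 0 rose by limma, with a median of -0.59. The counts were the same at an unadjusted p under 0.05, which 5682 of all 31526 tested probe sets had in either direction. The backgrounds of adjusted calls were 3.15% lower and 2.43% higher, or 5.5% and 4.48% with 1 probe set per gene. The summed signal of the 19 was 33450 and 33941 in Suz12KO and 101551 and 104144 in WT. Without the 5 that fell, the other 14 summed to 3323 and 2940 in Suz12KO and 2967 and 3328 in WT, which overlap. The 5 were left out because they fell in these same data, so the remainder shows where the summed fall lies and tests nothing. The 3 largest falls were Thbs1 (-2.34, SE 0.09), Acta2 (-2.25, SE 0.06) and Tagln (-1.89, SE 0.07). The other falls were Vim (-1.45) and Fn1 (-0.83), named after their values were seen. Many adherent cells express all 5. Of the other 14 markers, Thy1, Fbln1, Fbln2, Thbs2 and Loxl1 exceeded background in all 4 arrays. Pdgfrb, Postn, Lum and Dcn were within background in all 4 arrays. S100a4 and Fap exceeded it in 1 WT array and no Suz12KO array. Twist1 exceeded it in 1 array of each genotype, and Pdgfra and Twist2 in both WT arrays and no Suz12KO array. Thy1 read 445 and 191 in Suz12KO and 224 and 211 in WT, with overlap. Negative log2 fold changes that did not pass were -1.04 for S100a4, -1.02 for Twist2, -0.70 for Twist1, -0.47 for Pdgfra and -0.37 for Dcn. Fap and Postn, too dim to be tested, had both Suz12KO arrays below both WT arrays, and Pdgfrb overlapped. The share of such separation over all untested probe sets was not counted. Positive log2 fold changes that did not pass were 1.13 for Lum, 0.41 for Thy1, 0.38 for Fbln1, 0.22 for Fbln2, 0.17 for Thbs2 and 0.13 for Loxl1. Of these, Fbln1 read 945 and 752 in Suz12KO and 643 and 646 in WT. The part of fibroblasts in the collagen result was not tested. Fn1 lost its call with the mean of its probe sets (-0.40, adjusted p = 0.146), and Acta2 was then at -1.08 (adjusted p = 0.0333).

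Markers of parietal and primitive endoderm, cells that lay down much type IV collagen, did not move together. Of 14, 12 were tested, 1 fell and 1 rose, with a median of -0.18, where 3.15% and 2.43% of all tested probe sets did, or 5.5% and 4.48% with 1 probe set per gene. Lama1, the laminin chain of the first basement membranes, read 1417 and 1134 in Suz12KO and 238 and 247 in WT (log2 fold change 2.31, SE 0.22, limma adjusted p = 0.0003), while Sparc, which is on this list as well, fell. The summed signal was 21363 and 21961 in Suz12KO and 27477 and 26415 in WT. Without Sparc the other 13 summed to 9496 and 9801 in Suz12KO and 8603 and 9127 in WT. Sparc was left out because it fell in these same data, so this sum tests nothing either. Of the defining regulators, Gata4 was within background in 3 arrays, Foxa2 in all 4, and Gata6 read 307 and 350 in Suz12KO and 327 and 351 in WT. Sox17 read 404 and 319 in Suz12KO and 178 and 222 in WT (0.80, SE 0.37, limma adjusted p = 0.301). Sox7 read 278 and 222 in Suz12KO and 41.8 and 97.8 in WT, within background there (at least 1.51-fold higher, limma adjusted p = 0.188). Neither passed, and the genotypes did not overlap in either.

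The deposited scaling fixes each array's mean. Over all probe sets 766 rose and 993 fell, 43.5% of calls being higher. After centring on array medians, the median log2 fold change of all tested probe sets was -0.12 in place of 0.05, and 379 rose and 1624 fell (18.9% higher), so the larger number of collagen falls after centring stands beside a downward shift of all probe sets.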

How the data were processed

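Messenger RNA was measured on 2 arrays of Suz12KO and 2 of WT embryonic stem cells, grouped by sample titles. The authors deposited a linear signal (intensity) per probe set; trimmed of 2% of values at each end, it averaged 500.003 in every array, so it had been scaled per array. No source used here gives the summarisation software. Gene symbols are those of the platform annotation (34945 probe sets with 1 symbol, 932 with several, 9160 with none, 64 controls left out). Values were taken as log2(signal + 16) with no further normalization, and the 31526 probe sets at or above the 30th percentile of mean level were tested.

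Differences of Suz12KO from WT were tested with limma 3.58.1 under R 4.3.3 (lmFit, eBayes with trend, two-sided, Benjamini-Hochberg, prior degrees of freedom 7.66). A probe set at or under the highest bacterial spike in both arrays of a genotype has a bound only: the brighter genotype's mean log2 signal against, per array, the higher of that spike and its own signal. Probe sets shown in full passed the test or exceeded the spikes in both arrays of a genotype, and list genes are the 3 largest rises and falls past the test. Members and lists were chosen with earlier results of these data known. The test was checked on simulated data. Same-numbered arrays did not deviate together (correlation 0.0020). Promoter windows came from RefSeq, GRCm38.p6. Figures used matplotlib 3.10.9. Alternatives were other pseudocounts (1 or 64), filters, normalizations, ways to combine probe sets and variance models, a replicate block and leaving out each array.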

Additional observations from a re-analysis of the deposited data

How the results depend on the processing

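The collagen falls (11) stayed within 8 and 14 under other pseudocounts, filters and normalizations, robust estimation, the replicate block and leaving out suffixed (s, x or a) probe sets. They were 6, beside 1 rise, with 1 probe set per gene, 4 with probe sets averaged per gene and 0 without a variance trend in limma (20 collagen probe sets at an unadjusted p under 0.05). The tested collagen probe sets had a median log2 fold change of -0.40 under quantile normalization, -0.43 after centring, -0.064 with no filter and -0.46 with a filter at the 50th percentile; the last pair differ in how many dim probe sets enter. Over all probe sets there were 379 rises and 1624 falls after centring, 305 and 306 with gene means, 482 and 643 without suffixed probe sets and 0 and 0 without a trend (4193 at an unadjusted p under 0.05); apart from the tests' construction, the cause was not tested. Same-numbered arrays did not deviate together (correlation 0.0020), which cannot show whether they were handled as pairs. With replicate number as a block (replicate block) 1340 rose and 1564 fell, with 12 collagen falls and 2 rises. Among the collagen probe sets shown in full, reversed signs, all of uncalled ones, were 0.0059 for Col18a1 1426955_at (quantile), and -0.17 for Col4a1 1426348_at and -0.081 for Col4a2 (centred, which shifts every log2 fold change by -0.17).

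With 1 array left out, a lone array being assumed to vary like the other genotype's, rises ranged from 447 to 722 and falls from 644 to 1036 over all probe sets, collagen falls from 5 to 11, collagen rises from 0 to 1 and the collagen median from -0.41 to -0.10. Log2 fold changes then ranged from -0.16 to 0.16 for Col4a1 1426348_at, -0.17 to 0.13 for Col16a1, -0.049 to 0.023 for Col18a1 1426955_at, -1.80 to 0.65 for Col22a1, -1.84 to 0.41 for Col6a1, -0.087 to 0.95 for Col14a1 and -0.93 to 0.019 for Col8a2. Signals within the spike range give bounds only.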
